A study of Mus musculus with 4 samples.

Results

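Sox1, Sox2 and Sox3 are the genes of the SoxB1 group, and they were taken by symbol from a deposited single-cell table of 27998 mouse genes, so the account covers 3 of 27998 genes. The table comes from 10x Chromium libraries of cultured cells that were made to resemble neuromesodermal progenitors (NMPs), bipotent cells at the tail end of the embryo from which spinal cord and somites form. There were 4 groups with 1 library each, and 8700 cells were loaded for each library. ES-NMP came from mouse embryonic stem cells (line E14Tg2A) kept for 2 days in N2B27, a defined medium, and then for 24 h with 3 µM CHIR99021, a GSK3 inhibitor that activates WNT signalling. Epi-CE came from epiblast stem cells, which resemble the later epiblast and were kept in 12 ng/ml FGF2 and 25 ng/ml activin A. On the second of 3 days activin was removed and FGF2 was set to 20 ng/ml, and on the last day 3 µM of the same inhibitor (labelled Chiron) was added. Epi-CE-T was a Bra:GFP line, in which GFP reports Brachyury (T), that was treated like Epi-CE, and GFP-positive cells were sorted from it at 72 h. For Epi-NMP, Epi-CE cells were replated for 2 further days in 20 ng/ml FGF2 and 3 µM of the inhibitor. Every library carries the strain label E14Tg2a, and nothing in the labels says that a group holds more than 1 culture.

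SoxB1 proteins are transcription factors that bind DNA through an HMG box and act mainly as activators. SOX2 works with OCT4 in pluripotent cells and is kept in neural progenitors, SOX1 is an early and specific factor of the neural lineage, and SOX3 is found in epiblast and neural progenitors. In the caudal embryo SOX2 together with T marks NMPs, and SOX2 is lost as cells enter paraxial mesoderm.

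The coding sequences are nearly identical in a part of the HMG box, which matters for counting reads. The stretches below are the 90 coding bases most alike in the 3 genes. They were picked for that likeness, and identity over the rest of the box was not measured. They were read from GENCODE M21 transcripts (GRCm38, also called mm10), 5′ to 3′ on the coding strand, with capitals at bases that differ from Sox2. They lie at chr8:12396520-12396609 on the plus strand (Sox1), chr3:34650551-34650640 on the plus strand (Sox2) and chrX:60892903-60892992 on the minus strand (Sox3).
Sox1: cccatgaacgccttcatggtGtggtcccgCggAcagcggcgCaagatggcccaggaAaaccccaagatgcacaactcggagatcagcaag
Sox2: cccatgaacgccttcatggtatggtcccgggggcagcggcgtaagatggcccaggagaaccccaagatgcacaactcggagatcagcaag
Sox3: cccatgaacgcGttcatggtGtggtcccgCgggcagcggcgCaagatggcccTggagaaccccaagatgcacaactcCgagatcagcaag
Sox1 differs from Sox2 at 5 of the 90 bases (94.4% identical), and all 5 are the last base of a codon. Sox3 differs at 6 (93.3% identical), of which 5 are the last base of a codon. The longest run shared by any pair was 45 bases over whole transcripts, with the box included. It was no more than 10 bases in the last 500 bases of the transcripts, and other parts outside the box were not measured on their own.

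Each gene has 1 exon. Sox1 (ENSMUSG00000096014.1) spans chr8:12395295-12400126 on the plus strand, Sox2 (ENSMUSG00000074637.7) spans chr3:34650405-34652461 on the plus strand, and Sox3 (ENSMUSG00000045179.9) spans chrX:60891366-60893430 on the minus strand. Sox2 lies within the transcribed region of Sox2ot, and Sox1 overlaps Sox1ot and a predicted miRNA gene, all on the same strand. How reads in these overlaps were assigned is not given in the sources used here, so the counts of Sox1 and Sox2 are uncertain to that extent. No annotated gene overlaps Sox3.

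Results use the 8722 of 10579 barcodes that the deposited cell table marks TRUE: 3116 in ES-NMP, 2386 in Epi-CE, 2109 in Epi-CE-T and 1111 in Epi-NMP. The barcodes not marked TRUE made up 3.24% to 5.23% of the first 3 libraries but 57.7% of Epi-NMP. The TRUE cells held 22261452 to 71563029 UMIs (unique molecules counted) per library and a median of 19189 to 22614 per cell. Of the barcode sequences, 42 occurred among the TRUE cells of more than 1 library. Levels are CPM, UMI counts scaled to a library total of 1000000, with exact Poisson 95% intervals. Shares of cells are given after every cell was thinned at random to 8000 UMIs, with exact Clopper-Pearson intervals. Since each group is 1 library, conditions could not be tested over samples. All intervals cover counting error only.

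Sox2 supplied most SoxB1 UMIs in every library, and its level differed 3.19-fold between the lowest and the highest library. Sox2 stood at 71.7 CPM (69.7 to 73.7) in ES-NMP, 31.4 CPM (30.0 to 32.9) in Epi-CE, 49.0 CPM (46.9 to 51.1) in Epi-CE-T and 99.99 CPM (95.9 to 104) in Epi-NMP. The order from low to high was Epi-CE, Epi-CE-T, ES-NMP, Epi-NMP, and no intervals of neighbours overlapped. A Sox2 UMI was found in 32.6%, 18.5%, 23.9% and 43.5% of thinned cells in the order ES-NMP, Epi-CE, then Epi-CE-T and Epi-NMP. Without thinning the shares were 52.2%, 36.6%, 41.6% and 59.9%. The cell with the most Sox2 UMIs had 18, 11, 15 and 22, respectively.

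Sox1, the neural member, was low in all libraries and ranged most widely. It had 489 UMIs in ES-NMP (6.83 CPM, 6.24 to 7.47), 26 in Epi-CE (0.443 CPM, 0.29 to 0.649), 148 in Epi-CE-T (3.29 CPM, 2.78 to 3.86) and 16 in Epi-NMP (0.719 CPM, 0.411 to 1.17). Epi-CE and Epi-NMP did not differ beyond their intervals, and both lay below Epi-CE-T and ES-NMP. Thinned cells with a Sox1 UMI were 4.53% in ES-NMP, 0.335% in Epi-CE, 1.57% in Epi-CE-T and 0.36% in Epi-NMP. The unthinned shares were 11.4%, 1.05%, 4.93% and 1.44%. In naive pluripotent-like cells of ES-NMP, which should lack Sox1, 0.542% had a UMI after thinning, at a median of 23015 UMIs. That share comes from a library with more Sox1 and gives no background for the others. The few Sox1 UMIs of Epi-CE and Epi-NMP were unevenly spread over the clusters described below: cluster 12, with 19.1% of Epi-CE cells, held 53.85% of them (33.4% to 73.4%), and cluster 11, with 51.8% of Epi-NMP cells, held 93.75% (69.8% to 99.8%).

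Sox3, the epiblast and neural member, was low in all libraries. It had 187 UMIs in ES-NMP (2.61 CPM, 2.25 to 3.02), 88 in Epi-CE (1.5 CPM, 1.2 to 1.85), 41 in Epi-CE-T (0.911 CPM, 0.654 to 1.24) and 42 in Epi-NMP (1.89 CPM, 1.36 to 2.55). From high to low the order was ES-NMP, Epi-NMP, Epi-CE, Epi-CE-T, and the intervals of neighbours in it overlapped, whereas ES-NMP stood above Epi-CE and Epi-CE-T. A Sox3 UMI was seen in 2.09% of thinned cells in ES-NMP, 1.13% in Epi-CE, 0.616% in Epi-CE-T and 1.35% in Epi-NMP. Without thinning the shares were 5.49% in ES-NMP, 3.6% in Epi-CE, 1.85% in Epi-CE-T and 3.51% in Epi-NMP.

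**Figure D1:**
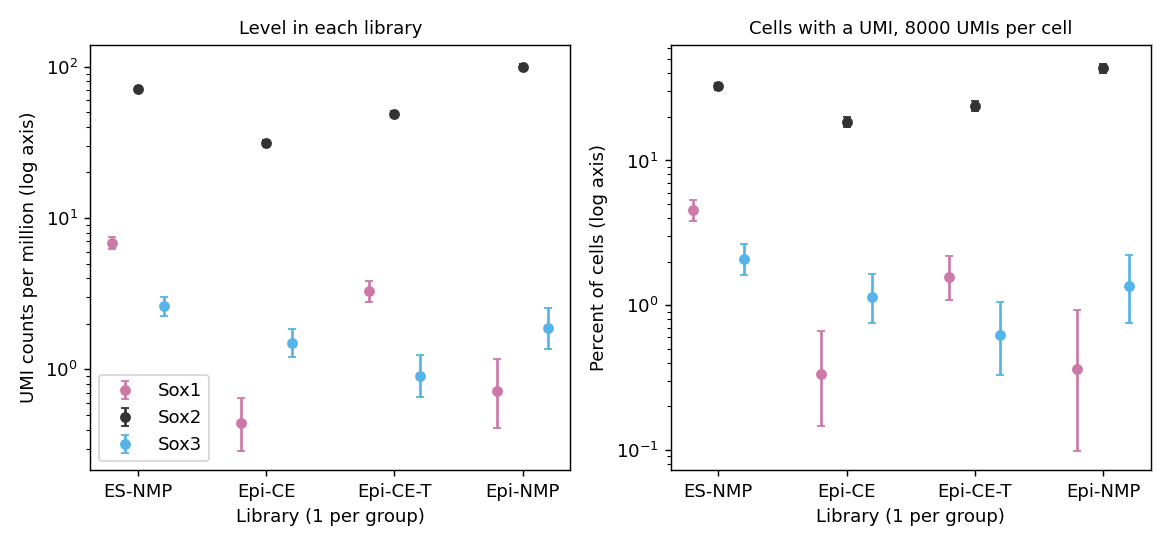
Level (left, CPM) and share of cells with a UMI after thinning to 8000 UMIs per cell (right, percent) of each SoxB1 gene in the 4 libraries, on log axes with 95% counting intervals. Sox2 lies between 31.4 and 99.99 CPM, whereas Sox1 spans 0.443 to 6.83 CPM and Sox3 spans 0.911 to 2.61 CPM.

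The makeup of the SoxB1 pool, as a share of UMIs not divided by transcript length, also differed. Sox2 made up 88.4% of SoxB1 UMIs in ES-NMP, 94.2% in Epi-CE, 92.1% in Epi-CE-T and 97.5% in Epi-NMP. Sox1 made up 8.43%, 1.33%, 6.19% and 0.701%, so its share was highest in ES-NMP and Epi-CE-T. Sox3 supplied 3.22%, 4.5%, 1.71% and 1.84%.

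All 3 genes were lower in Epi-CE than in ES-NMP. Sox1 was 15.4-fold lower (interval 10.4 to 23.8), Sox2 2.28-fold lower (2.17 to 2.41) and Sox3 1.74-fold lower (1.35 to 2.27). For scale, 16.2% of the 13553 genes compared were at least 1.5-fold lower in Epi-CE. When the ES-NMP cells of a naive pluripotent-like cluster (described below) were left out, Sox2 differed by only 1.05-fold between these libraries.

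Epi-NMP had less Sox1 and more Sox2 than ES-NMP. Sox1 was 9.51-fold lower (5.8 to 16.8) and Sox2 was 1.4-fold higher (1.33 to 1.47), and the Sox3 ratio of 0.722 had an interval of 0.504 to 1.01 that reached 1. In this comparison 18.4% of genes were at least 1.5-fold lower and 16% at least 1.5-fold higher. Once the naive pluripotent-like cells were left out, the Sox2 ratio was 3.02, and with all barcodes, TRUE or not, it was 1.23.

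Sox2 was higher in Epi-NMP than in Epi-CE, the stage before it in the protocol, with a ratio of 3.19 (2.99 to 3.39), or 2.84 when all barcodes were used. At least 1.5-fold higher in Epi-NMP were 14.9% of genes, and 22.7% were at least 1.5-fold lower. The Sox3 ratio was 1.26 (0.849 to 1.84), and Sox1 was too scarce in both libraries for a ratio. T, by contrast, was lower: 241 CPM against 430.5 CPM.

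Epi-CE-T, the reporter line sorted for GFP, differed from unsorted Epi-CE in opposite directions for different members. Sox1 was 7.42-fold higher (4.87 to 11.7) and Sox2 1.56-fold higher (1.47 to 1.66), whereas Sox3 was 1.65-fold lower (1.12 to 2.45). When the 10% of cells with fewest and the 10% with most UMIs were left out, the Sox1 ratio was 4.42. At least 1.5-fold higher were 18.1% of genes, and at least 1.5-fold lower were 13.1%. The line and the sort differ together between these libraries and cannot be told apart. T, whose reporter was the basis of the sort, was no higher in the library labelled Epi-CE-T: it had 382 CPM there and 430.5 CPM in Epi-CE, and 74.8% and 78.9% of thinned cells had a T UMI. For ES-NMP and Epi-NMP the T shares were 33.8% and 53.5%.

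Among other Sox genes, Sox15, which is close to the SoxB1 group and is known from embryonic stem cells, was nearly confined to ES-NMP with 558 UMIs against 1 in Epi-CE, 7 in Epi-CE-T and 1 in Epi-NMP. Sox21, a SoxB2 gene of neural progenitors, had 2.03, 2.81, 6.91 and 3.32 CPM in the order used above. Sox9, a factor of notochord and many progenitors, had 1.51, 12.0, 78.4 and 28.3 CPM in that order. The SoxC genes Sox4 and Sox11 were abundant everywhere, with 62.9 to 304 CPM and 67.2 to 138 CPM.

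Cells were then grouped by their other genes: the SoxB1 genes were left out of the genes used for clustering, and 18 clusters were found. Of these, 9 took a name from marker lists and 9 did not. Apart from clusters 4 and 10, clusters belonged mostly to 1 library, so a cluster may stand for its library. In ES-NMP Sox2 peaked in 1 cluster and Sox1 and Sox3 in another, where the Sox3 interval overlapped those of other clusters. In Epi-CE-T and Epi-NMP, by contrast, all 3 had their highest level in 1 cluster. The Epi-NMP intervals of Sox1 and Sox3 overlapped those of other clusters.

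In ES-NMP the highest Sox2 level was in naive pluripotent-like cells. This cluster (738 cells, 23.7% of the library) had 191 CPM of Sox2 (184 to 197), with a Sox2 UMI in 72.1% of thinned cells, and held 65.2% of all Sox2 UMIs of ES-NMP. Its Sox1 and Sox3 levels were low, at 0.399 CPM and 0.856 CPM. Neural progenitor-like cells (230 cells, 7.38%) had 72.2 CPM of Sox2 and had the highest Sox1 level, with 44.4 CPM of Sox1 (38.7 to 50.6) and 4.4 CPM of Sox3 (2.76 to 6.66). They held 45.4% of the Sox1 UMIs of ES-NMP.

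The caudal epiblast or NMP-like cells of ES-NMP formed 2 clusters that differed in Sox1 and Sox2. Cluster 0, with 716 cells, had 10.7 CPM of Sox1 and 43.1 CPM of Sox2, and cluster 1, with 386 cells, had 1.79 CPM and 24.1 CPM. Their Sox3 levels, 3.54 and 3.34 CPM, did not differ beyond their intervals. Core and primed pluripotent-like cells had 22.6 CPM of Sox2 and 3.1 CPM of Sox3. The lowest Sox2 level was 7.26 CPM in an unnamed cluster of 139 cells, with no Sox3 UMI (interval up to 1.22 CPM). This cluster carries Tbx6 and other paraxial mesoderm genes, but the endoderm genes Sox17 and Spink1 led its top 10 genes.

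In Epi-CE, Sox2 differed little over the large clusters and was low in paraxial mesoderm-like cells and in cluster 4. Clusters 8, 9 and 12, all unnamed, had 40.0, 33.6 and 32.9 CPM. The interval of cluster 8 (37.1 to 43.1) lay above those of clusters 9 and 12. Cluster 4 (108 cells), unnamed, with smooth muscle and epithelial genes, had 10.7 CPM (7.72 to 14.5). In it 2.78% of thinned cells had a Sox2 UMI. Paraxial mesoderm-like cells had 7.22 CPM (5.13 to 9.87), a Sox2 UMI in 5.07% of thinned cells, and no UMI of Sox1 or Sox3 (interval up to 0.683 CPM each). The share of 5.07% gives a measure of the signal in cells that should have little Sox2, since free RNA can put UMIs into such cells. Their median depth was 23785 UMIs, against 22614 in the library, where 18.5% of cells had a Sox2 UMI.

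In Epi-CE-T, 1 cluster held most of the Sox1. Cluster 13 (411 cells, 19.5% of the library) was unnamed. Of the neural list, Hes5, Crabp1 and Nkx6-2 were markers of this cluster. No neural marker was among its top 10 genes, which were led by Adm, Ppp1r3c and Egln3. The cluster had 10.5 CPM of Sox1 (8.76 to 12.5), 80.1 CPM of Sox2 (75.2 to 85.3) and 2.1 CPM of Sox3 (1.37 to 3.07). It supplied 87.8% of the library's Sox1 UMIs, 45.1% of its Sox2 UMIs and 63.4% of its Sox3 UMIs. Its cells were also deep, with a median of 28650 UMIs against 19189 in the library. The node or notochord-like clusters 15 and 17 had 48.2 and 17.6 CPM of Sox2.

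The Sox2 level of Epi-NMP differed between its 3 main clusters. Cluster 11 (575 cells, 51.8%) had 147 CPM of Sox2 (141 to 154), with a UMI in 61.6% of thinned cells, and held 83.5% of Sox2 UMIs and 76.2% of Sox3 UMIs. It carries both caudal epiblast markers such as Cdx2 and Cyp26a1 and neural markers, and stayed unnamed for that reason. Paraxial mesoderm-like cells had 29.3 CPM (25.3 to 33.7) and a Sox2 UMI in 20.7% of thinned cells. Cluster 10, unnamed, with 182 cells (16.4%), lay between them at 52.3 CPM (43.8 to 61.9), with a UMI in 29.7%. The level of the paraxial mesoderm-like cells was higher than the 7.22 CPM in the paraxial mesoderm-like cells of Epi-CE, in a library where Sox2 was also higher overall.

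**Figure D2:**
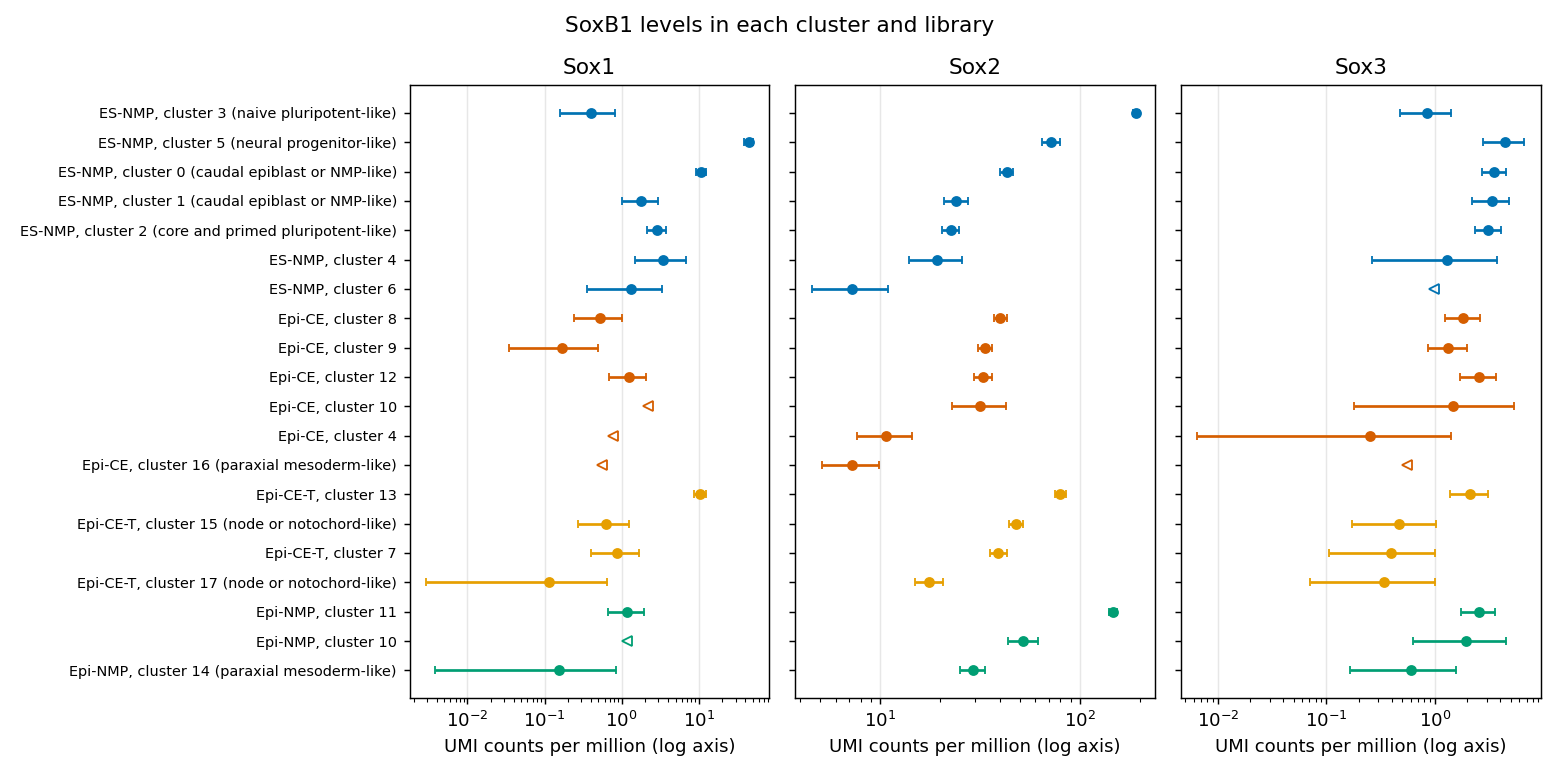
Level of Sox1, Sox2 and Sox3 (CPM, log axes) in each cluster with at least 50 cells of a library, with 95% counting intervals; open triangles mark the level that a count of 0 allows (3 counts). Sox2 is highest in naive pluripotent-like cells (191 CPM, ES-NMP) and in cluster 11 of Epi-NMP (147 CPM), and Sox1 in the neural progenitor-like cells of ES-NMP (44.4 CPM).

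Detection of more than 1 SoxB1 gene in a cell was rare in thinned cells. After thinning, 63.1% of ES-NMP, 80.3% of Epi-CE, 75.2% of Epi-CE-T and 55.7% of Epi-NMP cells had no UMI of any member, and all 3 genes were seen in 2, 0, 1 and 0 cells. In ES-NMP 48 cells had both Sox1 and Sox2, where the product of the shares gives 45.9, and 21 had both Sox2 and Sox3, where it gives 21.2. Without thinning 223 ES-NMP cells (7.16%) had both Sox1 and Sox2, where the product gives 185. For Sox2 with Sox3 the unthinned number was 80, where it gives 89.2. In Epi-CE-T 21 thinned cells had both Sox1 and Sox2, where the product gives 7.87. Of the Sox1-positive cells there, 63.6% (45.1% to 79.6%) also had a Sox2 UMI, against 23.9% of all cells.

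More UMIs of the rarer genes were available when Sox2 was called in the thinned draw and the other genes were counted at full depth. In Epi-CE-T, Sox1 was 3.62-fold higher in cells with a Sox2 UMI (2.59 to 5.08), and in ES-NMP the ratio was 1.12 (0.923 to 1.35). Without the naive pluripotent-like cells the ES-NMP ratio became 2.14 (1.76 to 2.59). Sox3 in cells with a Sox2 UMI was 1.42-fold lower in ES-NMP (1.01 to 2.02), whereas Epi-NMP had a 2.25-fold higher level in such cells (1.15 to 4.54). Once the naive pluripotent-like cluster was left out, the Sox3 ratio in ES-NMP was 1.19 (0.813 to 1.72). These cells carry much Sox2 and little Sox1 or Sox3.

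T is the partner of SOX2 in the usual definition of an NMP, and the relation between the genes differed by library. In ES-NMP 19.2% of Sox2-positive cells had a T UMI, against 40.9% of Sox2-negative cells. In Epi-CE-T the shares were 60.6% and 79.2%, in Epi-CE 74.8% and 79.9%, and in Epi-NMP 53.2% and 53.7%. The intervals of the Epi-NMP pair overlapped widely, and those of the Epi-CE pair overlapped too (70.5% to 78.8% and 78.0% to 81.6%). Cells with both T and Sox2 UMIs were 195 (6.26%) of ES-NMP, 330 (13.8%) of Epi-CE, 305 (14.5%) of Epi-CE-T and 257 (23.1%) of Epi-NMP. The products of the single shares give 343, 348, 376 and 258 cells in that order. No library thus held more cells with both than the product gives.

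Along the number of Sox2 UMIs in a cell, T was graded in ES-NMP and Epi-CE-T. In ES-NMP thinned T was 132 CPM in cells with 0 Sox2 UMIs, 78.7 CPM with 1, 30.5 CPM with 2 and 14.2 CPM with 3 or more. In Epi-CE-T the same classes had 489.8, 326, 317 and 223 CPM. Epi-CE had 455, 458, 447 and 555 CPM, the last from 25 cells, and Epi-NMP had 295, 335, 240.4 and 234 CPM. Counted at full depth, T was 2.38-fold lower in Sox2-positive cells of ES-NMP and 1.41-fold lower without the naive pluripotent-like cells. T was also low in Sox1-positive cells: 11.4% of them had a T UMI in ES-NMP against 34.9% of Sox1-negative cells, and 18.2% against 75.7% in Epi-CE-T.

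**Figure D3:**
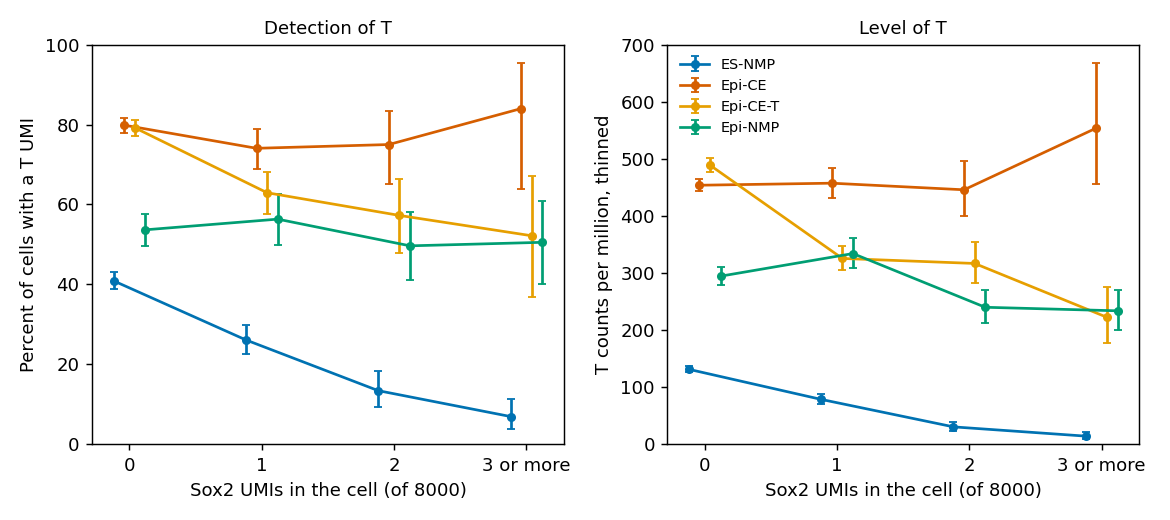
Share of cells with a T UMI (left, percent) and level of T (right, CPM of the thinned counts) by the number of Sox2 UMIs in the cell, with 95% counting intervals, for the 4 libraries. In ES-NMP the level of T goes from 132 to 14.2 CPM across the Sox2 classes, whereas Epi-CE starts at 455 CPM and ends at 555 CPM.

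Other genes were compared between cells with and without a SoxB1 UMI within each library, on thinned counts, which gave only Sox2 in every library and Sox1 and Sox3 in ES-NMP at least 50 cells of each kind. A gene is counted here when it differed at least 2-fold. For Sox2 this held for 217 genes higher and 140 lower of 9291 in ES-NMP (2.34% and 1.51%), 1 and 46 of 8918 in Epi-CE (0.0112% and 0.516%), 9 and 74 of 8833 in Epi-CE-T (0.102% and 0.838%) and 29 and 70 of 6827 in Epi-NMP (0.425% and 1.03%). Counted at full depth, 64 genes were higher and 127 lower in Epi-CE-T, and 117 and 187 in Epi-NMP. In the 3 epiblast-derived libraries more genes were lower than higher in Sox2-positive cells.

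In ES-NMP the genes highest in Sox2-positive cells were those of naive pluripotent cells. Tcl1, an AKT coactivator of embryonic stem cells, had 24.9 CPM in Sox2-positive and 3.57 CPM in Sox2-negative cells (6.97-fold, 5.2 to 9.46). Dppa3, a maternal factor kept in naive cells, had 169 and 27.4 CPM (6.18-fold), Morc1 65.4 and 10.3 CPM (6.35-fold), and Spp1, the secreted osteopontin, 103 and 17.4 CPM (5.94-fold). Of the naive pluripotent list, 12 of 13 measured genes were at least 1.5-fold higher and 0 lower. Their median log2 ratio was 2.30 against -0.06 over all genes, and 4.67% of all genes were that much higher. The smooth muscle genes Tagln (15.5 and 72.3 CPM, 4.66-fold lower) and Acta2 (11.0 and 49.2 CPM, 4.49-fold lower) and the epithelial keratins Krt19 (3.97-fold lower) and Krt18 (3.25-fold lower) were lowest.

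The lists of caudal genes lay on the other side in ES-NMP. Of 15 measured caudal epiblast or NMP genes 13 were at least 1.5-fold lower in Sox2-positive cells, with a median log2 ratio of -0.89, where 6.76% of all genes were that much lower. Nkx1-2, a caudal epiblast homeobox gene, had 82.6 CPM in Sox2-positive and 153 CPM in Sox2-negative cells, and the posterior homeobox gene Cdx2 had 176 and 280.4 CPM. Of 8 measured genes known to carry a joint SOX2 and OCT4 element, 5 were at least 1.5-fold higher and 2 that much lower. Of all genes 4.67% were that much higher. Utf1 (217 and 84.7 CPM) and Nanog (101 and 40.3 CPM), both of pluripotent cells, were higher, and Lefty1, a Nodal antagonist (151 and 266 CPM), and Nes, the intermediate filament gene nestin (17.7 and 35.5 CPM), were lower.

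Most of this ES-NMP pattern went with the naive pluripotent-like cluster. Without its cells, 9 genes were at least 2-fold higher and 51 at least 2-fold lower in Sox2-positive cells. Of 15 NMP genes 0 were at least 1.5-fold higher and 1 was lower. Of 7 measured genes with a joint SOX2 and OCT4 element 0 were at least 1.5-fold higher and 1 was lower, with a median log2 ratio of -0.50. Of the naive list 7 members were still measured, and 0 were past 1.5-fold in either direction. The cluster left out had been named from this same list, so this loss was largely given in advance. Among all genes measured in the remaining cells 1.23% were at least 1.5-fold higher and 2.53% that much lower. Of 8 neural genes 6 were then at least 1.5-fold higher and 0 were lower. Their median log2 ratio was 0.89. Hes5, a Notch target of neural progenitors, had 22.0 CPM in Sox2-positive and 9.37 CPM in Sox2-negative cells (2.35-fold, 1.77 to 3.09), and Crabp1, a retinoic acid binding protein, 272 and 118 CPM (2.32-fold, 2.15 to 2.5). With all cells, 1 of the 8 neural genes was higher and 1 lower.

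In Epi-CE few genes went with Sox2. The highest ratios of the genes named here were below 2: Pdgfa, a growth factor (21.3 and 11.3 CPM, 1.89-fold), Ptch1, the Hedgehog receptor (48.5 and 26.9 CPM, 1.8-fold) and Cdx2 (211 and 117 CPM, 1.8-fold). Of 12 measured NMP genes 3 were at least 1.5-fold higher (Cdx2, Wnt3a and Fgf8) and 1 lower (Cyp26a1), where 1.15% of all genes were that much higher and 2.4% lower. The epithelial genes Sfn (3.97 and 33.1 CPM, 8.34-fold lower) and Cldn4 (4.54 and 25.5 CPM, 5.61-fold lower) and the mesoderm gene Tbx6 (2.27 and 12.0 CPM) were low in Sox2-positive cells.

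In Epi-CE-T the leading partner of Sox2 was Crabp1, with 87.0 CPM in Sox2-positive and 15.7 CPM in Sox2-negative cells (5.53-fold, 4.64 to 6.61). Fgfbp3, an FGF binding protein, had 56.4 and 20.6 CPM (2.74-fold), Tns3, a focal adhesion protein, 22.4 and 8.41 CPM (2.66-fold) and Lin28a, an RNA binding protein of stem cells, 28.8 and 14.2 CPM (2.02-fold). Of 7 measured neural genes 3 were at least 1.5-fold higher (Crabp1, Sox21 and Irx5) and 0 lower, where 1.35% of all genes were that much higher and 3.95% that much lower. The list's median log2 ratio was 0.52. Ptgds, a prostaglandin synthase, was lowest (0.994 and 29.0 CPM, 29.1-fold lower, 11.3 to 108). Among other Sox genes, Sox9 had 68.1 and 103 CPM and Sox6 3.73 and 7.63 CPM. Cluster 13, whose cells are deep, holds 45.1% of the Sox2 UMIs of this library, and its part in these values was not tested.

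In Epi-NMP caudal genes were higher and paraxial mesoderm genes lower in Sox2-positive cells. Of 9 measured NMP genes 5 were at least 1.5-fold higher and 0 lower, where 2.2% of all genes were that much higher, and the list's median log2 ratio was 0.74. Among them Epha5, an ephrin receptor, had 36.2 and 12.7 CPM (2.84-fold, 2.1 to 3.89), Cdx2 458 and 224 CPM (2.04-fold) and Nkx1-2 97.1 and 58.1 CPM (1.67-fold). The homeobox genes Hoxc6, at 42.7 and 15.5 CPM (2.75-fold), and Hoxc10, at 31.3 and 11.9 CPM (2.62-fold), were among the 8 genes with the highest ratios, and Mycl had the highest ratio (25.9 and 7.37 CPM, 3.51-fold).

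On the other side in Epi-NMP, 8 of 9 measured paraxial mesoderm genes were at least 1.5-fold lower in Sox2-positive cells (median log2 ratio -1.54), where 3.19% of all genes were that much lower. Mesp1, an early mesoderm factor, had 4 UMIs (1.03 CPM) against 107 (21.3 CPM, 20.6-fold lower, 7.8 to 76.9). Aldh1a2, which makes retinoic acid in somites, had 4.14 and 31.7 CPM (7.64-fold lower), and Twist1, a mesenchymal factor, 5.44 and 29.3 CPM (5.38-fold lower).

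The neural list was divided in Epi-NMP. Of 5 measured genes 1, the cell adhesion gene Ncam1, was at least 1.5-fold higher (165 and 79.8 CPM), where 2.2% of all genes were. At least 1.5-fold lower were 2, Crabp1 (9.58 and 35.2 CPM), the reverse of its direction in Epi-CE-T, and Zic1 (19.7 and 32.8 CPM). The list's median log2 ratio was -0.58. At full depth 9 members were measured, of which 5 were higher and 4 lower, and the median turned to 0.72, where 3.67% of all genes were higher and 5.37% lower. Neurog2, a proneural factor (7.08 and 1.25 CPM), and Hes5 (12.4 and 3.5 CPM) were among those higher at full depth.

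Sox1-positive cells of ES-NMP carried neural genes. Here 157 of 9291 genes were at least 2-fold higher and 622 at least 2-fold lower (1.69% and 6.69%), and without the naive pluripotent-like cells 67 were higher and 379 lower. Only 141 thinned cells were Sox1-positive, and 57 of the genes had no UMI in them, so many ratios rest on few counts. At full depth, with 354 Sox1-positive cells, 175 of 11366 genes were higher and 695 lower. On thinned counts Zic1, a neural zinc finger factor, had 27.5 CPM in Sox1-positive and 3.74 CPM in Sox1-negative cells (7.35-fold, 4.72 to 11.2). Fabp7, a fatty acid binding protein of radial glia, had 171 and 24.7 CPM (6.93-fold), Hes5 47.0 and 7.61 CPM (6.18-fold), Crabp1 560.3 and 95.1 CPM (5.89-fold) and Msx3, a dorsal spinal cord homeobox gene, 33.7 and 6.35 CPM (5.31-fold). Of 8 measured neural genes 6 were at least 1.5-fold higher and 0 lower, where 7.49% of all genes were that much higher, and the list's median log2 ratio was 2.07.

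The pluripotent and caudal lists were low in the same Sox1-positive cells. At least 1.5-fold lower were 12 of 13 naive genes, 12 of 15 core and primed genes and 10 of 15 NMP genes, where 12.7% of all genes were that much lower. The exceptions among NMP genes were Hes3, a Notch pathway repressor (77.1 and 34.4 CPM, 2.24-fold higher), Cdx2 (254 and 246 CPM) and Nkx1-2 (127 and 130.2 CPM), besides Sp5 and Wnt8a, whose ratios were 0.684 and 0.865. Cldn4 had no UMI in Sox1-positive cells. It was at least 7.36-fold lower by its interval, and 9.08-fold lower against a floor of 3 counts over the group. Without the naive pluripotent-like cells Zic1 (5.76-fold), Fabp7 (5.42-fold) and Hes5 (4.98-fold) still had the highest ratios.

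In Epi-CE-T, 104 cells had a Sox1 UMI at full depth, so Sox1 could be followed in a second library at the cost of unequal depth (a median of 30220 UMIs against 18914). Of 10774 genes 752 were at least 1.5-fold higher and 1913 that much lower in Sox1-positive cells. Crabp1 (7.5-fold) and Fgfbp3 (5.67-fold), which also went with Sox1 or Sox2 above, were high there. So were Fgf15, a caudal and neural FGF (8.48-fold), and Ntrk2, a neurotrophin receptor (7.1-fold). Of 9 measured NMP genes 3 were at least 1.5-fold higher, among them Wnt8a (5.87-fold), and 6 were that much lower. The median log2 ratio of the NMP list was -1.40. Nanog (4.41-fold) and Pou5f1, which encodes OCT4 (2.89-fold), were higher in these cells too. T stood at a ratio of 0.0849, and the notochord genes Shh (0.0477) and Nog (0.103) were low as well. Cluster 13, which held 87.8% of the library's Sox1 UMIs, has Fgf15 and Fgfbp3 among its top 10 genes. Its part in these values was not tested.

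For Sox3 only 65 cells of ES-NMP had a UMI after thinning, and the named genes rest on few counts. Of 9292 genes 167 were at least 2-fold higher (1.8%) and 850 at least 2-fold lower (9.15%) in Sox3-positive cells, against 39 and 289 of 11366 at full depth. Hes3, with 50 UMIs in these cells, had 96.2 CPM against 35.1 CPM (2.74-fold, 2.02 to 3.65), and the other 7 genes with the highest ratios had 11 to 14 UMIs. At full depth, with 171 Sox3-positive cells, Hes3 was 1.73-fold higher (1.51 to 1.96), and no other of those 8 genes ranked among the top 8 again. Gbx2, a homeobox gene of epiblast and hindbrain, was 1.56-fold higher there.

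Naive genes were low in Sox3-positive cells of ES-NMP, with 10 of 13 at least 1.5-fold lower on thinned counts, where 15.5% of all genes were that much lower. Zfp42, which encodes REX1, had 57.7 and 170 CPM and Dppa3 23.1 and 74.7 CPM. Without the naive pluripotent-like cells 0 of 7 measured naive genes were that much lower, where 14.2% of all genes were, and 0 were higher, where 7.02% were. Of 15 NMP genes 2 were at least 1.5-fold higher (Hes3 and Rspo3), as were 7.66% of all genes, and 1, Cdx4, had no UMI in these cells.

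In Epi-CE 86 cells had a Sox3 UMI at full depth, where 4.15% of all genes were at least 1.5-fold higher and 7.57% that much lower in Sox3-positive cells. Of 9 measured paraxial mesoderm genes 8 were lower and 0 higher, with Tbx6 at a ratio of 0.0841 and Aldh1a2 at 0.184. Of 14 core and primed pluripotent genes 1, Nanog, was higher (2.29-fold, 1.78 to 2.91) and 2 were lower. Of 8 smooth muscle genes 1, Acta2, was higher (2.84-fold, 2.22 to 3.58) and 2, Tagln and Tpm1, were lower.

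**Figure D4:**
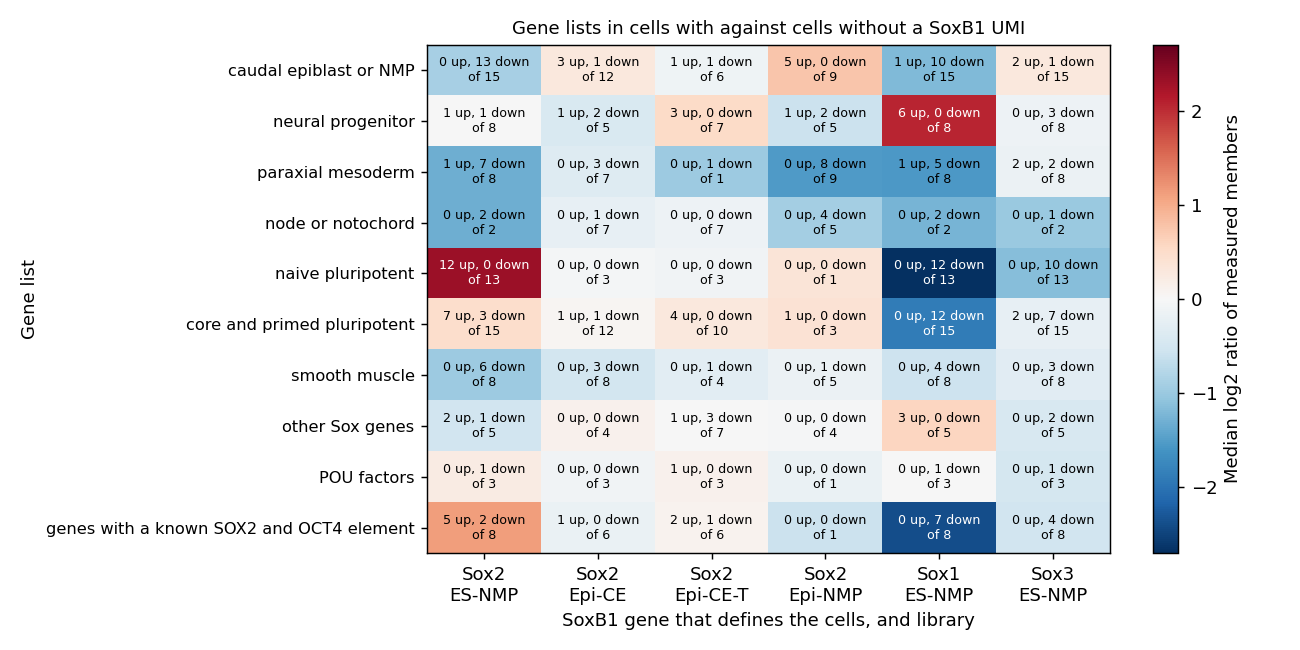
Median log2 ratio (colour) of the measured members of 10 gene lists in cells with against cells without a UMI of the named SoxB1 gene, with the number of members at least 1.5-fold higher (up) or lower (down) in each field. The naive list stands at 2.30 for Sox2 and -2.69 for Sox1 in ES-NMP, and the NMP list at -0.89 for Sox2 in ES-NMP and 0.74 in Epi-NMP.

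A gene that went with Sox2 in 1 library seldom did so in all 4. Of 6657 genes measured in every library, 119, 31, 67 and 108 were at least 1.5-fold higher in Sox2-positive cells of ES-NMP, Epi-CE, then Epi-CE-T and Epi-NMP, and 0 were so in all 4. At a lower bar of 1.25-fold, chosen after these values were seen, the genes higher in all 4 included Tns3, Bora, Ube2t, Wdr76 and Nav2. Tns3 had ratios of 1.46, 1.61, 2.66 and 1.7 in that order, and Bora, Ube2t and Wdr76, which act in cell division or DNA repair and replication, had ratios between 1.25 and 1.73, with intervals of Bora and Wdr76 that reached below 1 in Epi-CE. Nav2 lay at 1.31 to 1.89, with intervals that reached below 1 in Epi-CE and Epi-CE-T.

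More genes were low with Sox2 throughout. At least 1.5-fold lower were 310, 53, 105 and 186 of the 6657 genes, and 5 were so in all 4 libraries. Cited1, a transcriptional coregulator, was 3.05, 3.46, 2.01 and 2.51-fold lower in that order. Phlda1 was 2.19, 2.53, 1.63 and 3.08-fold lower, and the ligand gene Wnt6 2.25, 1.55, 4.27 and 3.1-fold lower. Fam212a (1.53 to 4.66-fold) and the keratinocyte gene Sprr2a3 (1.58 to 3.15-fold) complete the set.

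**Figure D5:**
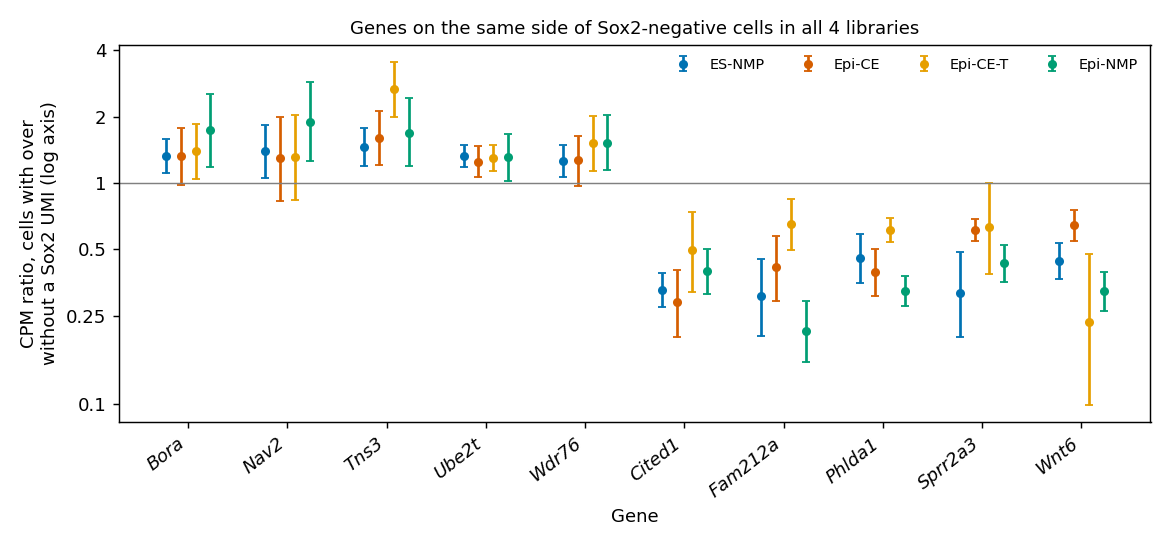
Ratio of CPM in cells with over cells without a Sox2 UMI (log axis, 95% counting intervals) in each library, for 5 named genes at least 1.25-fold higher and the 5 genes at least 1.5-fold lower in all 4. Tns3 reaches 2.66 in Epi-CE-T, and Cited1 lies between 2.01-fold and 3.46-fold lower.

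Across the 20 combinations of cluster and library with at least 50 cells, the genes whose level was most like that of each member were ranked among 7070 genes by Pearson's r of log2(CPM + 1). For Sox1 these were Cdc42se2 (r = 0.905), Fgfbp3 (0.898), Lpl (0.855), Fam84a (0.852), Sco1 (0.842) and Msx3 (0.839), all of them highest in the neural progenitor-like cells of ES-NMP. For Sox2 they were Plekha7 (0.773), Lima1 (0.732), Zfp219 (0.729), Tns3 (0.664), Sox13 (0.646) and Rbm26 (0.645). For Sox3 they were Wscd1 (0.83), Map7d2 (0.811), Ormdl2 (0.795), Rnd2 (0.792), Uchl1 (0.783) and Macrod2 (0.759).

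These correlations describe 20 points that share 4 libraries and differ in depth, and few Sox3 UMIs stand behind each point. Among themselves the members were less alike, with r of 0.628 for Sox1 with Sox3, 0.515 for Sox2 with Sox3 and 0.285 for Sox1 with Sox2. T ran opposite to Sox1 (r = -0.732) and less so to Sox2 (-0.296) and Sox3 (-0.289).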

How the data were processed

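Single-cell RNA was measured in 4 mouse libraries, 1 per group, with groups taken from the sample titles. The tools named in the submitters' processing notes are Cell Ranger 1.3.1 and Seurat 2.0, with build mm10. Annotation, strand use and the handling of multiply mapped reads are not given in the sources used here. Values in the deposited table are UMI counts in whole numbers, not normalized by the authors. A deposited cell table names each barcode's library and marks it TRUE or FALSE; the meaning of the mark is not given in the sources used here, and TRUE barcodes were used (every one had over 8000 UMIs).

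Counts were summed over cells and divided by the library total (CPM). A count of 3 is 0.0419 to 0.135 CPM in the 4 libraries. Ratios carry exact conditional-binomial 95% intervals. Cells were thinned to 8000 UMIs without loss of a cell. Ratios between libraries needed 50 UMIs over both, and genes compared within a library needed 100 thinned UMIs and at least 50 cells with and without the SoxB1 UMI. Named genes were the 8 highest and 4 lowest ratios among genes with 20 CPM or more in the higher group, without ribosomal, mitochondrial and predicted genes, besides up to 4 members of each of 11 lists (130 genes). The ratio script was tested on simulated data.

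Clustering used scanpy 1.11.5 (2000 variable genes, 30 components, 15 neighbours, Leiden resolution 1.0) on python 3.11.15, numpy 2.4.6, scipy 1.17.1 and pandas 2.3.3. A cluster was named when at least 3 markers of a class reached 5 CPM and 2-fold over other cells, more than for any other class, with 1 among its top 10 genes. This rule was tightened after the clusters had been seen. That left unnamed the cluster led by smooth muscle with epithelial genes, and the ES-NMP cluster with paraxial mesoderm markers, whose top gene was Sox17. No doublet caller was run, and doublets may remain, above all among deep cells. TMM factors came from edgeR 4.0.16 in R 4.3.3. The members and lists were chosen with earlier results of these data known. Some genes that the naming rule selects are not reported here. Alternatives were all barcodes, other scalings, other thinning depths and seeds, and no count minimum; leaving out naive pluripotent-like cells and using full depth were chosen after seeing the data.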

Additional observations from a re-analysis of the deposited data

Results flagged for a closer look

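The barcodes of Epi-NMP that are not marked TRUE (1513) lie outside the comparisons above, and they hold SoxB1 UMIs as well: 0.522 CPM of Sox1, 55.1 CPM of Sox2 (49.9 to 60.6) and 1.3 CPM of Sox3. In the TRUE cells of that library Sox2 stood at 99.99 CPM. The barcodes that are not marked TRUE had a median of 4720 UMIs.

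Lists that lay on opposite sides in different libraries were the caudal epiblast or NMP list and the neural progenitor list. In cells with against cells without a Sox2 UMI, the NMP list had a median log2 ratio of 0.74 in Epi-NMP and -0.89 in ES-NMP, and the neural list 0.52 in Epi-CE-T and -0.58 in Epi-NMP. The opposite sides of the neural list were lost at full depth, where its medians were 0.58 in Epi-CE-T and 0.72 in Epi-NMP. The NMP list kept its sides at full depth, at 1.04 in Epi-NMP and -0.66 in ES-NMP, and had -0.31 in ES-NMP without the naive pluripotent-like cells. The measured members were not the same in each library, and the differences between libraries were not tested.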

How the results depend on the processing

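No paired analysis was possible because each group has 1 library. No SoxB1 ratio crossed 1 under the alternatives run, although the Sox2 ratio of Epi-CE over ES-NMP came to 0.949 without the naive pluripotent-like cells. TMM factors and totals without ribosomal and mitochondrial genes left all 11 SoxB1 ratios within their counting intervals. The Sox2 ratio of Epi-NMP over ES-NMP was 1.23 with all barcodes, 1.32 as a mean of per-cell CPM and 3.02 without the naive pluripotent-like cells. That of Epi-NMP over Epi-CE was 2.84 with all barcodes and 2.98 per cell. For Epi-CE-T over Epi-CE, Sox2 was 1.37 per cell and 1.44 when the 10% of cells with fewest and with most UMIs were left out, where Sox1 was 4.42. Detection follows depth: Sox2 shares, in the order ES-NMP, Epi-CE, then Epi-CE-T and Epi-NMP, were 52.2%, 36.6%, 41.6% and 59.9% without thinning and 21.5%, 10.5%, 13.9% and 28.7% at 4000 UMIs. Without thinning, Sox2 was seen in 63.0% of Sox1-positive and 46.8% of Sox3-positive cells of ES-NMP, and T in 36.6%, 85.0%, 73.3% and 62.9% of Sox2-positive cells. With every gene of at least 1 thinned UMI, genes at least 2-fold higher and lower with Sox2 were 1879 and 2649 in ES-NMP, 1137 and 2876 in Epi-CE, 1164 and 2571 in Epi-CE-T and 1393 and 2218 in Epi-NMP; with Sox1 they were 1311 and 5760, and with Sox3 1185 and 6697, in ES-NMP. By construction the additional genes have under 100 thinned UMIs. Another seed gave 5 genes higher with Sox2 in Epi-CE, where the main count is 1. Without the naive pluripotent-like cells the ES-NMP counts were 9 and 51 for Sox2 and 67 and 379 for Sox1. At full depth they were 2 higher for Sox2 in Epi-CE, 64 and 127 in Epi-CE-T, 117 and 187 in Epi-NMP, and 39 and 289 for Sox3 in ES-NMP. Sox1 and Sox3 partners outside ES-NMP are limited by depth.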
